A study of Schizosaccharomyces pombe with 10 samples.

Results

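Of the 6116 Gene IDs in a window table of Schizosaccharomyces pombe chromatin, 8 are the protein-coding genes of the mitochondrial DNA (MT): cox1, cox2, cox3, cob1, atp6, atp8, atp9 and rps3. They were chosen by Gene ID, as every MT window carrying 1 of the Gene IDs SPMIT.01 (cox1), SPMIT.11 (cox2), SPMIT.04 (cox3), SPMIT.05 (cob1), SPMIT.07 (atp6), SPMIT.09 (atp8), SPMIT.10 (atp9) or SPMIT.08 (rps3). They hold 122 windows of the 195 on MT and of the 126317 in all, and the 73 other MT windows carry the ribosomal RNA genes, the transfer RNA genes or no gene. The libraries came from 4 groups. Cells with Myo1-GFP, the class I myosin of fission yeast joined to green fluorescent protein, were kept in low phosphate (YES LowPi medium) or in high phosphate (YES medium), with 3 libraries each. The NoIP libraries, 2 in each medium, are of a strain labelled wild-type. All cultures grew for 4 h at 30°C and were fixed with 3% formaldehyde. The labels describe a pull-down on GFP-Trap beads for every library but do not say whether NoIP is a pull-down from untagged cells or chromatin without one. A comparison with NoIP is therefore between kinds of library, in which the tagged strain and a pull-down may both differ. Nothing states that replicates were separate cultures.

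Mitochondrial DNA lies in the matrix of the organelle in many copies and is packed by its own proteins, not by the histones of the nucleus. In fission yeast it encodes core subunits of the respiratory chain and of the ATP synthase, a ribosomal protein, and the RNAs needed to translate them, while all other subunits are made from nuclear genes and imported. The libraries served a search for binding of the tagged myosin to the genome, in cells with and without phosphate limitation. The mitochondrial genes were covered by reads in all of these libraries, with and without the tag.

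The value used throughout is a level, the log2 signal of a window over that of the median window of the same library, averaged over the windows of a gene. A level of 0 is the median window of the genome, and folds are 2 to the power of the level. Each library's values were whole multiples of its own smallest value within 0.01, and the depth in such steps ran from 1.42 to 43.8 M (M, mega-steps). Replicate 3 of Myo1-GFP in low phosphate (1.80 M) and replicate 3 of Myo1-GFP in high phosphate (1.42 M) were shallow, against at least 10.8 M in the 8 deeper libraries, so both shallow libraries belong to Myo1-GFP. The labels do not say which libraries were run on MiSeq and which on HiSeq, nor the read length of each. Instrument and read length may therefore differ between libraries along with depth. The sources used here do not establish that 1 step is 1 read, and the step counts, relative SDs and intervals given here rest on that reading. The median window of the 8 genes held 253 steps in the shallower of these and at least 313 in the deeper ones. Counting error alone then gave it a relative SD between 2.81% and 6.28%, and no MT window was at 0 in any library.

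cox1, cox2 and cox3 encode the catalytic core of cytochrome c oxidase (complex IV), which passes electrons to oxygen. cox1 filled 41 windows (MT:4701-8900, build ASM294v2), and its RefSeq gene model (ASM294v3) is 3908 bases long with 2 group I introns. Its level was 3.31, 4.34 and 45.2-fold over the median window in Myo1-GFP low-phosphate replicates 1, 2 and 3 and 8.81, 5.61 and 29.9-fold in Myo1-GFP high-phosphate replicates 1, 2 and 3. In NoIP cells it was 5.30 and 3.28-fold in low phosphate and 4.86 and 3.30-fold in high phosphate. The 2 shallow libraries stood far above the rest, and among the deeper libraries the highest was Myo1-GFP high-phosphate replicate 1.

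cox3 (MT:8801-9900, 10 windows) ordered the libraries as cox1 did, apart from an exchange of Myo1-GFP low-phosphate replicate 1 and NoIP high-phosphate replicate 2. It had levels of 3.38, 4.35 and 49.9-fold in Myo1-GFP low-phosphate cells and 9.04, 5.56 and 36.4-fold in Myo1-GFP high-phosphate cells, against 5.22 and 3.29-fold in NoIP low-phosphate cells and 5.07 and 3.45-fold in NoIP high-phosphate cells. cox2, which carries the copper site that takes electrons from cytochrome c, lay last in the base numbering of the MT sequence (MT:18501-19431, 9 windows). Its levels were 2.49, 3.30 and 32.7-fold in Myo1-GFP low-phosphate cells, 6.59, 4.12 and 26.3-fold in Myo1-GFP high-phosphate cells, 3.98 and 2.498-fold in NoIP low-phosphate cells and 3.94 and 2.56-fold in NoIP high-phosphate cells. It was the lowest of the 8 genes in each of the 10 libraries.

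cob1 encodes cytochrome b, the membrane subunit of complex III at which quinol is oxidised. It filled 39 windows (MT:10001-14000), and RefSeq (ASM294v3) gives its gene 3690 bases with 1 group II intron. cob1 levels were 3.33, 4.32 and 47.3-fold in Myo1-GFP low-phosphate cells and 8.92, 5.59 and 33.5-fold in Myo1-GFP high-phosphate cells, against 5.27 and 3.26-fold in NoIP low-phosphate cells and 4.92 and 3.40-fold in NoIP high-phosphate cells. Like cox1, it was highest in the 2 shallow libraries and next in Myo1-GFP high-phosphate replicate 1.

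atp6 and atp9 form the proton channel of the ATP synthase, and atp8 is a small membrane subunit beside them. atp6 (MT:14701-15700, 9 windows) spanned 3.20 to 45.0-fold over the 10 libraries, atp9 (MT:17801-18200, 3 windows) 3.07 to 46.9-fold, and atp8 (MT:16801-17200, 3 windows) 3.19 to 39.9-fold. For each of these 3 genes both extremes fell in the same libraries, with the highest in Myo1-GFP low-phosphate replicate 3 and the lowest in NoIP low-phosphate replicate 2. rps3 (MT:15901-16800, 8 windows) encodes a protein of the small mitochondrial ribosomal subunit. Its levels were 3.28, 4.25 and 33.8-fold in Myo1-GFP low-phosphate cells, 8.11, 5.62 and 28.0-fold in Myo1-GFP high-phosphate cells, 5.15 and 3.21-fold in NoIP low-phosphate cells and 5.36 and 3.35-fold in NoIP high-phosphate cells.

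**Figure D1:**
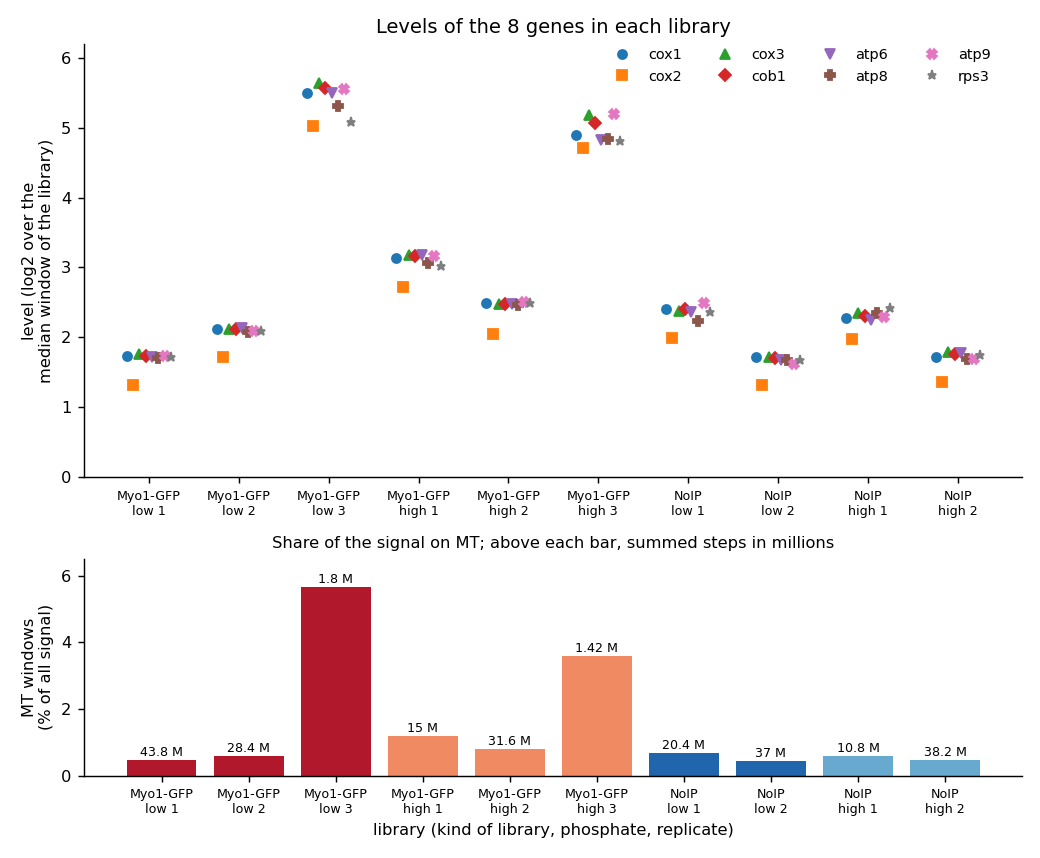
Upper panel, level of each of the 8 genes (log2 over the median window of the library) in each of the 10 libraries, 1 marker for each gene. Lower panel, MT windows as a percentage of all signal, with the summed steps of the library above each bar. In the deeper libraries the markers of a library lie close together apart from cox2. Both shallow Myo1-GFP libraries (1.80 and 1.42 M) stand above the others in both panels, and in them the markers are spread wider, with rps3 near cox2.

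The genes differed little within a library compared with the differences between libraries. Between the lowest and the highest of the 8 genes the log2 difference was 0.39 to 0.61 (median 0.45, 10 libraries), and without cox2 it was 0.049 to 0.26 in the 8 deeper libraries. In the shallow libraries of low and high phosphate the difference without cox2 was still 0.56 and 0.39, with rps3 the lowest of the remaining genes in both. The mean level of the 8 genes, by contrast, ran from 1.64 to 3.08 (log2) over the deeper libraries and was 4.94 and 5.40 in the shallow ones. Over the 8 deeper libraries the lowest Pearson r between the levels of any pair of the genes was 0.98. This is a description over libraries in which all genes share depth and scaling, and the 8 genes also share the MT signal of the library.

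All MT windows together made up 0.457, 0.591 and 5.68% of the signal in Myo1-GFP low-phosphate replicates 1, 2 and 3 and 1.19, 0.788 and 3.59% in Myo1-GFP high-phosphate replicates 1, 2 and 3. In NoIP cells the share was 0.686 and 0.443% in low phosphate and 0.587 and 0.463% in high phosphate. With 1 step read as 1 read and windows that do not overlap, the 95% Wilson interval was 5.61 to 5.70% for the largest share and 0.439 to 0.446% for the smallest, covering counting error only. The windows of the 8 genes took a steady 59.0 to 62.3% of the MT signal, so that the libraries differed in how much MT signal they held more than in how it was divided. A higher MT share can reflect more mitochondrial DNA in the extract or less signal elsewhere, and these cannot be told apart here.

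Against the other Gene IDs the mitochondrial genes ranked near the top of each library. Of 6081 Gene IDs off MT, 6 to 148 lay above the lowest of the 8 genes, and this was 0.0987 to 2.43% of them. In Myo1-GFP low-phosphate replicate 3 no Gene ID off MT exceeded the highest of the 8, cox3, while 12 to 33 did so in the other libraries. The 3 Gene IDs off MT whose level was most like the mean of the 8 genes over the 8 deeper libraries were SPNCRNA.1103 (Pearson r = 0.95), mug170 (r = 0.92) and rpm1 (r = 0.92), taken from 5764 candidates with a median r of -0.12. Their levels covered far narrower ranges, from 0.12 to 0.35 (log2) in SPNCRNA.1103, from -0.30 to 0.014 in mug170 and from -0.23 to 0.028 in rpm1, against 1.64 to 3.08 for the mitochondrial genes.

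The nuclear genes for the partner subunits lay near the median window. Of 31 listed subunits of complex III, cytochrome c, complex IV and the ATP synthase, 27 had windows under their own Gene ID (names matched through RefSeq, ASM294v3), and qcr10, rip1, cox8 and atp18 did not. Their median level was -0.051 to 0.15 (log2) over the 10 libraries. cyc1, the gene of cytochrome c, had the highest mean at 0.78 ± 0.12 (SD, n = 10), and atp2, the catalytic beta subunit of the ATP synthase, averaged 0.57 ± 0.15. In each library even the lowest of the 8 mitochondrial genes lay above the highest of the 27 nuclear ones, by 0.59 to 1.85 (log2) in the deeper libraries and by 4.09 and 4.03 in the shallow libraries of low and high phosphate.

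Levels were next set against the other MT windows of the same library, which removes differences in the amount of MT signal. On this relative log2 scale cox3 averaged 0.032 ± 0.049, atp9 0.0066 ± 0.064, cob1 0.0011 ± 0.039, cox1 -0.028 ± 0.070, atp6 -0.039 ± 0.093, rps3 -0.086 ± 0.19, atp8 -0.087 ± 0.12 and cox2 -0.41 ± 0.077 (SD, n = 10). From cox3 down to atp8 no gene differed from the next by more than the SD of that difference over libraries. Only the last step, from atp8 to cox2, exceeded it (0.32 ± 0.086, in the same order in 10 of 10 libraries). The mean over the 8 genes was -0.076 ± 0.064, but it was -0.0059 ± 0.065 with windows that do not overlap and -0.15 ± 0.060 against the median of the other MT windows. The signs of the genes near 0 turned with such choices. cox3 was -0.041 against the median, -0.022 against MT windows that share no base with the 8 genes and -0.017 from log2 of the mean signal. With windows that do not overlap cox1 was 0.030 and atp6 0.0041, and cox2 was -0.25. Over the 8 deeper libraries rps3 was -0.0078 ± 0.065 and atp8 -0.041 ± 0.069, both nearer 0 than over all 10, and cox2 was -0.39 ± 0.042. cox2 was the lowest gene under each of these settings.

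**Figure D2:**
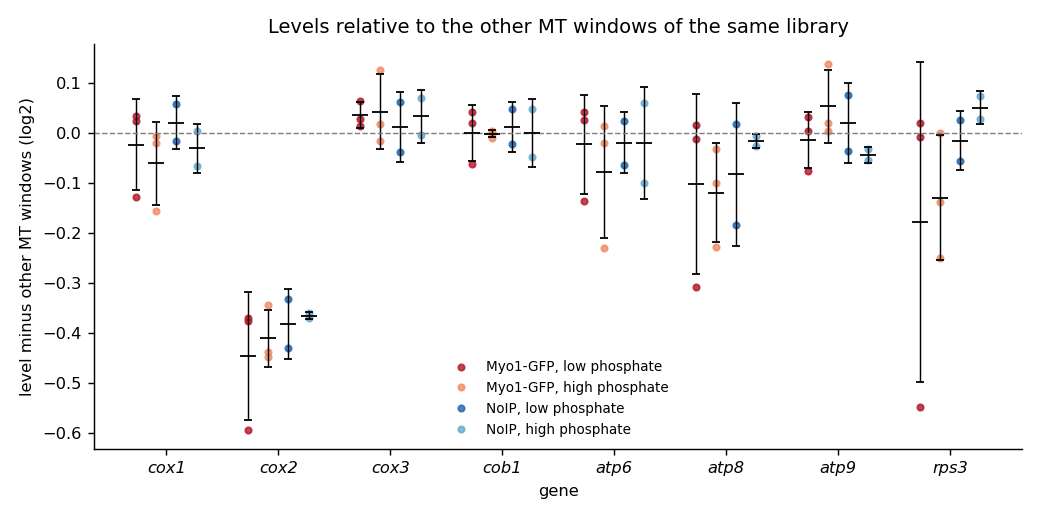
Level of each gene minus the mean level of the 73 other MT windows of the same library (log2), with 1 point for each library, coloured by group, and bars for the mean and SD of the group. cox2 lies between -0.60 and -0.33 in all 10 libraries, while the other 7 genes lie between -0.55 and 0.14.

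cox2 values on the relative scale were -0.38, -0.37 and -0.60 in Myo1-GFP low-phosphate cells and -0.44, -0.45 and -0.35 in Myo1-GFP high-phosphate cells, against -0.43 and -0.33 in NoIP low-phosphate cells and -0.37 and -0.36 in NoIP high-phosphate cells. The low value came from the last windows of the gene. Its 4 first windows were close to the other MT windows, with means from -0.051 to 0.023, and the highest of its windows was MT:18901-19100 at 0.030 ± 0.075 (SD, n = 10). Beyond this the windows fell step by step to -0.14 ± 0.065 at MT:19001-19200, -0.52 ± 0.053 at MT:19101-19300, -1.08 ± 0.087 at MT:19201-19400 and -1.88 ± 0.10 at MT:19301-19431, each below 0 in 10 of 10 libraries. The last of these ends with the MT sequence of the table at base 19431 and is 131 bases long. It is 1 of 2 MT windows shorter than 200 bases. At the opposite end the large ribosomal RNA gene did likewise, with -1.30 ± 0.19, -0.70 ± 0.17 and -0.27 ± 0.14 in its first 3 windows (MT:1-200, MT:101-300 and MT:201-400).

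With windows within 400 bases of either end left out, an alternative chosen after seeing these values, no gene differed from the next by more than the SD of that difference. cox2 then averaged -0.11 ± 0.12, from 4 windows, and lay between cob1 (-0.089 ± 0.049) and cox1 (-0.12 ± 0.078). The other 7 genes moved down on this scale, because the comparison windows lost their own low ends. cob1, cox1, atp6, rps3 and atp8 were now below the other MT windows in 10 of 10 libraries, and cox3 (-0.059 ± 0.053), atp9 (-0.084 ± 0.069) and cox2 in 9 of 10.

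Pooled over their windows, both kinds of RNA gene lay above the protein genes, but not every single transfer RNA gene did. Away from the ends, the 28 windows labelled with a transfer RNA exceeded the windows of the 8 genes by 0.11 ± 0.070 (log2, range 0.039 to 0.28) and the 39 windows labelled with ribosomal RNA by 0.11 ± 0.069 (range 0.036 to 0.24), in each case in 10 of 10 libraries. The highest of all other MT features was the window of SPMITTRNAASP.01, an aspartate transfer RNA gene between cob1 and atp6 (MT:14301-14500), at 0.36 ± 0.17 on the relative scale. The lowest with a Gene ID was the glutamate transfer RNA gene SPMITTRNAGLU.01 before cox2, at -0.058 ± 0.099. Also below 0 were SPMITTRNAILE.01 (-0.050 ± 0.13), SPMITTRNACYS.01 (-0.044 ± 0.078), SPMITTRNAALA.01 (-0.028 ± 0.048) and SPMITTRNAVAL.01 (-0.016 ± 0.059), while every other transfer RNA gene averaged above 0. The highest were the neighbours SPMITTRNAPHE.01, SPMITTRNAASP.01, SPMITTRNALEU.01 and SPMITTRNATRP.01 (MT:14201-14700), from 0.26 to 0.36. The final window of MT has no gene and 31 bases, and its relative level was -3.89 ± 0.34.

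Apart from the end of cox2, the widest ranges over the windows of a gene were those of cox1 and atp6. In the 8 deeper libraries the window means of cox1 ran from -0.072 to 0.21 on the relative scale, those of atp6 from -0.062 to 0.14, those of cox3 from -0.014 to 0.13, those of cob1 from -0.054 to 0.084, those of rps3 from -0.047 to 0.061, those of atp9 from -0.014 to 0.011 and those of atp8 from -0.050 to -0.027. cox1 was highest in its first window (MT:4701-4900, 0.20 ± 0.081, SD, n = 10), atp6 in its last window (MT:15501-15700, 0.14 ± 0.098) and cox3 in its last window (MT:9701-9900, 0.15 ± 0.084). Each of these 3 windows overlaps a neighbouring window labelled with a transfer RNA, SPMITTRNAMET.01 beside cox1 (0.23 ± 0.098), SPMITTRNAHIS.01 beside atp6 (0.15 ± 0.11) and SPMITTRNAARG.01 beside cox3 (0.13 ± 0.085), neighbours that were picked out after their values were seen. Not every gene-end window that overlaps a transfer RNA window averaged above 0. Those below 0 include the last window of atp9 (MT:18001-18200, -0.017 ± 0.061), the first of atp8 (MT:16801-17000, -0.083 ± 0.14) and the first of rps3 (MT:15901-16100, -0.014 ± 0.17). The first windows of atp8 and rps3 were nevertheless the highest of their genes, and that of rps3 was below 0 in only 2 of 10 libraries. atp9 was highest in its first window (MT:17801-18000, 0.024 ± 0.065), which overlaps the window of SPMITTRNASER.02. The highest window of cob1 was inside the gene (MT:11001-11200, 0.12 ± 0.12), as was its lowest (MT:13601-13800, -0.096 ± 0.11).

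rps3 and part of cox1 showed the widest differences between libraries. The lowest window of rps3 (MT:16201-16400) averaged -0.15 ± 0.25, with a minimum of -0.79, and the lowest window of cox1 (MT:7301-7500) averaged -0.17 ± 0.21, with a minimum of -0.61. These minima belong to the shallow libraries, that of rps3 to the one of low phosphate and that of cox1 to the one of high phosphate. The SD over MT windows away from the ends was 0.25 and 0.19 (log2) in the shallow libraries of low and high phosphate, against 0.053 to 0.16 in the deeper ones, so that depth moved with this spread and its part in it was not tested. Across the windows of the 8 genes away from the ends, and taking every other window, Pearson r between 2 deeper libraries was -0.044 to 0.67 (median 0.43, 28 pairs). This is a description over the same windows in each library, and what they have in common was not tested.

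**Figure D3:**
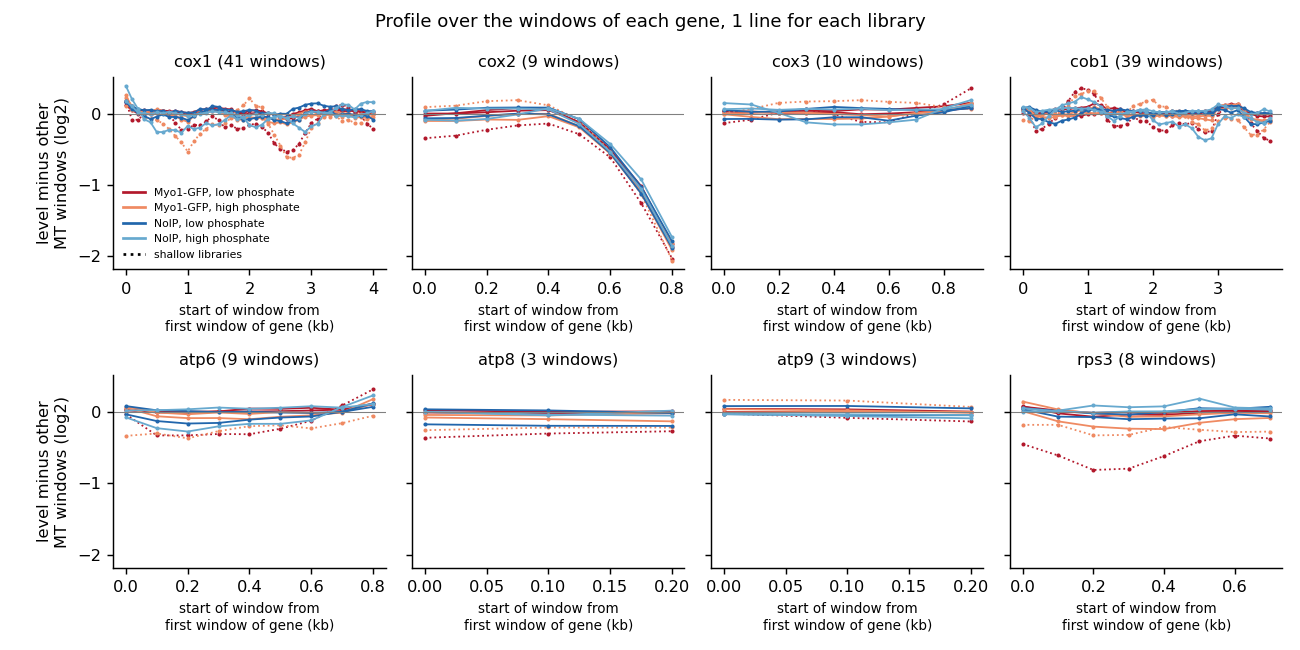
Level of each window minus the mean of the other MT windows of the same library (log2) against the start of the window, in kb from the first window of the gene, with 1 panel for each gene and 1 line for each library (dotted for the 2 shallow ones). The lines of cox2 fall together to -1.88 on average in its last window, and the dotted lines leave the others in rps3 and cox1.

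How signal was divided among the genes was compared between the kinds of library on the relative levels. No difference between Myo1-GFP and NoIP passed for any of the 8 genes (exact two-sided permutation of the kind of library within each phosphate condition, 100 arrangements, p from 0.19 to 0.80, smallest possible p 0.01). The largest difference was that of rps3. It had relative levels of 0.018, -0.0081 and -0.55 in Myo1-GFP low-phosphate cells and -0.14, -0.0011 and -0.25 in Myo1-GFP high-phosphate cells, against -0.057 and 0.025 in NoIP low-phosphate cells and 0.073 and 0.026 in NoIP high-phosphate cells. For rps3 the groups overlapped in low phosphate and did not in high phosphate. In high phosphate 3 of the 8 genes did not overlap, with rps3 and atp8 lower and atp9 higher in Myo1-GFP, beside 26.9% of the 26 other MT Gene IDs on the same scale. The rps3 difference of -0.17 (exact permutation p = 0.19) was -0.049 over the 8 deeper libraries (exact permutation p = 0.44), where the design cannot go below p = 0.056.

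No difference between the phosphate conditions passed on this scale either. For low against high phosphate, permuted within each kind of library (120 arrangements), the exact two-sided p ran from 0.28 to 0.97 over the 8 genes, and the smallest possible p was 0.017. cox1 had the smallest p, with a difference of 0.044 (means of -0.0066 in low phosphate and -0.049 in high phosphate). None of these 16 tests passed 0.05 even before adjustment over them.

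The levels themselves were then compared with limma across all Gene IDs and all windows. In Myo1-GFP against NoIP over both conditions, the 8 genes had positive changes with a median of 1.28 (log2, range 1.15 to 1.35), but their SE was 0.74 to 0.84 and their adjusted p 0.95, so none was called. None of the 122 windows was called either, beside 0% of the 6115 Gene IDs and 0% of the 126242 windows tested. The median change of all Gene IDs was -0.036. In high phosphate the median change of the 8 genes was 1.5003 (range 1.36 to 1.63, SE 1.04 to 1.19, adjusted p 0.9998), and in low phosphate it was 1.07 (range 0.94 to 1.12, adjusted p 0.96), with 0 genes and 0 windows called in each. The unadjusted limma p was at least 0.136 for each gene in these 3 comparisons, while 1.39%, 1.7% and 0.278% of Gene IDs fell under 0.05 over both conditions, in high phosphate and in low phosphate.

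In high phosphate the libraries of the 2 kinds nevertheless did not overlap. All 3 Myo1-GFP libraries lay above both NoIP libraries for 8 of the 8 genes, and the same was true of 7.93% of all Gene IDs. The mean of the other MT windows separated likewise, at 3.16, 2.49 and 5.06 (log2) in Myo1-GFP against 2.35 and 1.72 in NoIP. The separation was thus shared by MT as a whole, and the 8 genes do not count as 8 separate results. The mean of the 8 genes was 3.48 ± 1.31 (log2, SD, n = 3) in Myo1-GFP high-phosphate cells and 1.98 ± 0.41 (SD, n = 2) in NoIP high-phosphate cells. In low phosphate 0 of the 8 genes separated in this way (5.12% of all Gene IDs did), and the means were 3.04 ± 2.05 (SD, n = 3) in Myo1-GFP cells and 1.98 ± 0.49 (SD, n = 2) in NoIP cells.

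The size of these changes rested on the 2 shallow libraries. With the 8 deeper libraries the median change of the 8 genes was 0.33 over both conditions (adjusted p 0.75 to 0.79), 0.77 in high phosphate and -0.13 in low phosphate, none called. In high phosphate the 2 deeper Myo1-GFP libraries still lay above both NoIP libraries for 8 of 8 genes, beside 15.3% of all Gene IDs, as they did for the mean of the other MT windows. Without Myo1-GFP low-phosphate replicate 3 alone, the change in low phosphate was -0.13, and without Myo1-GFP high-phosphate replicate 3 alone, the change in high phosphate was 0.77. Centring each library on its median MT window gave changes between -0.036 and 0.0042 (medians of the 8 genes in the same 3 comparisons), but 122 of the 195 MT windows belong to the 8 genes, so this centring itself sets their changes near 0.

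**Figure D4:**
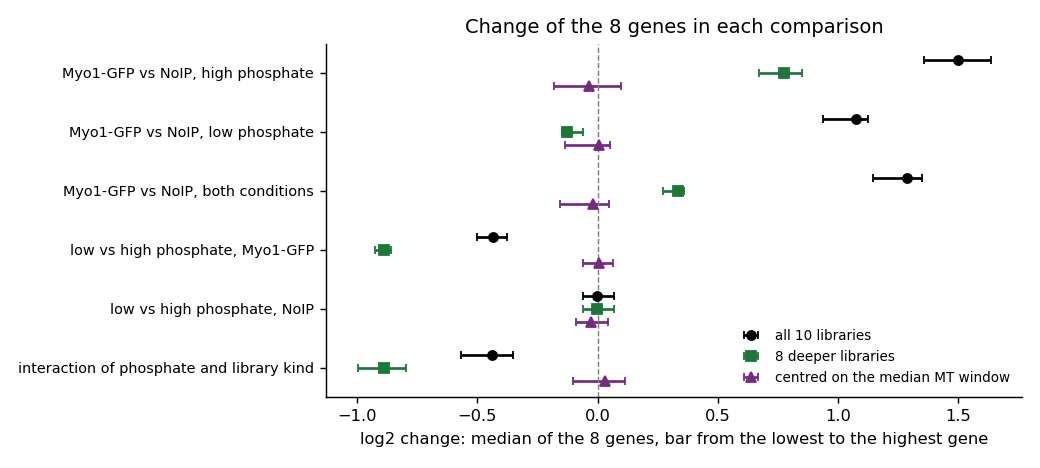
Log2 change of the 8 genes in each of the 6 comparisons, as the median (marker) and the range from the lowest to the highest gene (bar), for all 10 libraries, for the 8 deeper libraries and with each library centred on its median MT window. Myo1-GFP against NoIP in low phosphate moves from 1.07 to -0.13 without the shallow libraries, and the values centred on MT lie close to 0 by construction, since 122 of the 195 MT windows belong to the 8 genes.

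Low against high phosphate within Myo1-GFP gave the 8 genes a median change of -0.44 (range -0.50 to -0.38, SE 0.93 to 1.06, adjusted p 0.85 to 0.89). None was called, beside 0.131% of Gene IDs and 0.0174% of windows, and none had an unadjusted limma p under 0.05, beside 10.2% of Gene IDs. In 0 of the 8 genes did the 3 low-phosphate libraries all lie below the 3 high-phosphate ones, beside 8.19% of Gene IDs. Between the deeper Myo1-GFP libraries, 2 in each condition, the change was -0.89 (range -0.93 to -0.86), and low phosphate lay below high phosphate for 8 of 8 genes, as it did for 24% of all Gene IDs. The mean of the other MT windows lay lower likewise, at 1.69 and 2.09 (log2) in low phosphate against 3.16 and 2.49 in high phosphate. In these deeper libraries the unadjusted limma p of the 8 genes was 0.0355 to 0.0453, beside 20.2% of Gene IDs with an unadjusted p under 0.05, and the adjusted p was 0.21 to 0.24.

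This change did not keep its sign or size when single libraries were left out. Its median was 0.30 without Myo1-GFP high-phosphate replicate 3, 0.26 without Myo1-GFP low-phosphate replicate 1, 0.072 without Myo1-GFP low-phosphate replicate 2 and -1.61 without Myo1-GFP low-phosphate replicate 3. It was -0.65 without Myo1-GFP high-phosphate replicate 1 and -0.96 without Myo1-GFP high-phosphate replicate 2, and quantile normalization turned it to 0.14. With limma's array weights, which let the shallow libraries count less, 1 window of the 122 was called (the last window of cox2, MT:19301-19431, change -0.92, adjusted p 0.047), beside 8.07% of all windows. No gene of the 8 was called with these weights.

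Within NoIP, low against high phosphate gave the 8 genes a median change of -0.0019 (range -0.061 to 0.069, SE 1.14 to 1.30) and none called, beside 0.213% of Gene IDs and 0% of windows. No gene had an unadjusted p under 0.05, beside 6.39% of Gene IDs. The difference between the phosphate changes of Myo1-GFP and NoIP (interaction term) had a median of -0.44 (range -0.57 to -0.35, adjusted p 0.9996), with 0 genes and 0 windows called, beside 0% of each, and with no unadjusted p under 0.05, beside 0.458% of Gene IDs. The Myo1-GFP high-phosphate libraries enter several of these comparisons, so their values are not independent of each other.

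By limma, the window of the 8 genes with the smallest unadjusted p was in cox1 for Myo1-GFP against NoIP over both conditions (MT:5201-5400, change 1.39, SE 0.77, unadjusted p 0.10), in cob1 in high phosphate (MT:12801-13000, change 1.59, SE 1.023, unadjusted p 0.15) and in atp8 in low phosphate (MT:17001-17200, change 1.11, SE 1.03, unadjusted p 0.31). For low against high phosphate limma placed it in rps3 within Myo1-GFP (MT:16101-16300, change -0.55, unadjusted p 0.53) and in cox1 within NoIP (MT:7601-7800, change 0.20, unadjusted p 0.86), and for the interaction in cob1 (MT:12101-12300, change -0.62, unadjusted p 0.69). The cox1 window had levels of 1.75, 2.11 and 5.66 (log2) in Myo1-GFP low-phosphate cells and 3.22, 2.52 and 4.97 in Myo1-GFP high-phosphate cells, against 2.38 and 1.69 in NoIP low-phosphate cells and 2.09 and 1.74 in NoIP high-phosphate cells. Its 5 highest libraries were those of the whole gene, in the same order.

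With all libraries weighted equally, the 27 nuclear-encoded subunits were not called by limma in any of the 6 comparisons (0 higher and 0 lower, adjusted p at least 0.14). Their median change was -0.0050 (log2) for Myo1-GFP against NoIP over both conditions, beside -0.036 for all Gene IDs and 1.28 for the 8 mitochondrial genes. For low against high phosphate within Myo1-GFP it was -0.016, beside -0.024 for all Gene IDs, and 3 of the 27 had an unadjusted p under 0.05, beside 10.2% of all Gene IDs. In this comparison array weights called cox6 (-0.26) and cox13 (0.38), subunits of complex IV, beside 14% of all Gene IDs, and quantile normalization called cox13 (0.53), beside 0.72%.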

How the data were processed

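The authors deposited a table of signal in 200-base windows placed every 100 bases, with a Gene ID for each window. The submitters' processing notes name Trim Galore 0.3.8, Bowtie2 2.2.4 and the build ASM294v2; how the deposited signal was scaled is not given in the sources used here. Signal values were used as log2(value + 1), kept where above 0 in at least 2 libraries, and centred on the median window of each library. Windows and means per Gene ID were fitted with limma 3.58.1 (R 4.3.3; 1 mean per group, all 10 libraries, eBayes with trend, two-sided), and Benjamini-Hochberg adjusted p under 0.05 over all features was the threshold. Relative levels were tested by exact permutation over libraries (Python 3.11.15). Named were the 8 genes, the highest and lowest window of each, the window with the smallest p per comparison, the extremes of the other MT features and the 3 most similar Gene IDs. Windows overlap, so neighbouring values share reads. Intervals cover counting error only. The limma and permutation code was tested on simulated data. The members, although defined by Gene ID alone, and the lists were chosen with earlier results of these data known. Alternatives covered pseudocount, filter, scaling, weights, block, depth, windows, comparator and single libraries. The mitochondrial sequence given for ASM294v3 is 19433 bases long against 19431 in the table, so no window was placed on it and no sequence is shown.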

Additional observations from a re-analysis of the deposited data

How the results depend on the processing

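Counts of called genes and windows were 0 in all 6 comparisons under every alternative run, leave-one-out included (range 0 to 0), except that array weights called 1 of the 122 windows for low against high phosphate within Myo1-GFP. The counts of relative levels past p = 0.05 were 0 under the 16 alternatives that could reach it (smallest exact permutation p 0.10). Both alternatives on the deeper libraries could not, with a smallest possible p of 0.056. The mean relative level of the 8 genes, -0.076, was -0.0059 with windows that do not overlap and -0.15 against the median of the comparator windows, and ran from -0.082 to -0.059 when single libraries were left out. The median share of signal on MT was 0.638%, also with every other window. Nothing in the labels ties equal replicate numbers together, and not every same-numbered pair correlated: r of the deviations was -0.18 to 0.37 (median 0.14, 13 pairs, 7 over 0.1) for equal numbers and -0.37 to 0.19 (median -0.11, 24 pairs) for different ones, where groups of 2 give mirrored values. With the replicate block the median change of the 8 genes was 0.33 for Myo1-GFP against NoIP over both conditions, 0.54 in high phosphate and 0.11 in low phosphate, and 0 genes and 0 windows were called. Without single libraries the change over both conditions was 0.69 (without Myo1-GFP low-phosphate replicate 3) to 1.63. A count test was not run, since the values are scaled signal, and windows could not be limited to gene bodies, since gene positions were not used here. The 2 shallow libraries, both Myo1-GFP, limit every comparison of levels, and their array weights over windows were 0.070 and 0.11, against at least 0.81 for the others.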
